A study of Mus musculus with 18 samples.

Results

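The genes described here are those of MHC class II antigen presentation in CD11b-positive cells of the mouse brain: Cd74, H2-Aa, H2-Ab1, H2-Eb1, H2-DMa, H2-DMb1 and Ciita. They were taken by symbol from the count table, where these 7 genes stood among 57010, and all 7 were among the 15528 genes with enough counts to be tested. RNA was sequenced from cells of male wild-type mice that were freed from the brain with papain and DNase, cleaned on Percoll, depleted of Ly6G-positive cells and then selected on CD11b beads; the labels call them microglia/macrophages. There were 18 libraries in 6 groups of 3, called biological replicates in the labels. Young mice (2 to 4 months) without disease received vehicle or bexarotene, which activates the retinoid X receptors (RXR), nuclear receptors that pair with many others. Aged mice (18 to 20 months) without disease received the same vehicle or bexarotene, and aged mice with a stroke by middle cerebral artery occlusion received vehicle or bexarotene as the other pair of groups. Bexarotene (5 mg/kg) or its vehicle, saline with 3% DMSO, was injected into the peritoneum, starting 24 hours past surgery and going on each day for 2 days, and cells were taken on day 3. The labels do not say whether mice without stroke had any surgery, so stroke and surgery cannot be told apart. No young mice had a stroke.

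Class II molecules carry peptides of proteins taken up from outside the cell to CD4+ T cells. H2-Aa and H2-Ab1 encode the alpha and beta chains of the I-A molecule, and H2-Eb1 the beta chain of I-E. Cd74 encodes the invariant chain, which fills the groove of new class II molecules and leads them to endosomes. H2-DMa and H2-DMb1 encode the 2 chains of H2-DM, which exchanges the last piece of the invariant chain for peptides. Ciita encodes the class II transactivator, which binds no DNA itself and is recruited by factors sitting on the shared X and Y boxes of class II promoters. Resting microglia are known for little class II on their surface, while dendritic cells, B cells and activated macrophages are known for more.

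The promoters of 4 of the 7 genes were in RefSeq's table (build GRCm38.p6): H2-Aa, H2-Eb1, H2-DMb1 and H2-DMa, the last with 2 entries. The 130 bases before the start are shown for H2-Aa, H2-Eb1 and H2-DMb1, because these 3 share a pair of motifs at nearly the same distance. They lie at chr17:34287824-34287953 on the minus strand, chr17:34305737-34305866 on the plus strand and chr17:34153061-34153190 on the plus strand. Capitals mark the GNAACT (a core of the X box) and the TGATTGG (a Y box with the CCAAT core on the other strand) that form the pair, and a further CCAAT in H2-Eb1. Another GNAACT on the minus strand, near the far end of the H2-Aa and H2-Eb1 windows, is outside the pair and was left in lower case.
H2-Aa: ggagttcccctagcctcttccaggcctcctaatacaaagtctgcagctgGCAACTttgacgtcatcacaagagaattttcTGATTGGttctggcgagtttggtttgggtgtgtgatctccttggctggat
H2-Eb1: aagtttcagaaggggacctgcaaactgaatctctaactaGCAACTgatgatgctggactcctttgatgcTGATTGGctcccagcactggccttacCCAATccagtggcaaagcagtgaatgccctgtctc
H2-DMb1: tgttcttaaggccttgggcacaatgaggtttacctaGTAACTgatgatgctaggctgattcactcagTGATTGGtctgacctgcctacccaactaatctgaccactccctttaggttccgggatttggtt

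The gap between the motifs was 25 bases in H2-Aa, 24 in H2-Eb1 and 25 in H2-DMb1. GNAACT followed by TGATTGG within 10 to 40 bases, on either strand, was found in the 250 bases before the start of 76 of 32851 promoters (0.231%). Alone, TGATTGG was in 7.23% of promoters and GNAACT in 37.3%, and the pair was chosen after these sequences were seen. Neither H2-DMa window held the pair. The CCAAT core, which TGATTGG contains on its other strand, was in 33.8% of promoters. CCTAGNNAC, the start of a fuller X box that overlaps GNAACT, was in 3.37%, and among these genes only in H2-DMb1. Such matches are a description of letters and not a test of binding.

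Library totals were 7582511 to 11852638 counts without stroke and 16206144 to 29359943 with stroke, so that a floor of 3 counts stood at 0.104 to 0.405 CPM. CPM are counts scaled to library size with a TMM factor, and the floor covers counting error only. The 7 genes together held 0.0645% to 0.331% of a library's counts, and 6 of them had at least 481 counts in every library. Ciita had 2 to 72 counts without stroke and 101 to 587 with stroke. Microglial markers were high in every library, with P2ry12 at 8014 to 14164 CPM without stroke and 1659 to 2939 CPM with stroke. In these bulk libraries, fewer cells of a type and less RNA per cell cannot be told apart.

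Levels of the class II chains and the invariant chain were lowest in young mice, higher in aged mice and most uneven after stroke. In young mice Cd74 stood at 195, 305 and 247 CPM with vehicle and at 268, 259 and 271 CPM with bexarotene. In aged mice it was at 423, 730 and 686 CPM with vehicle and at 891, 569 and 489 CPM with bexarotene. After stroke it was at 1512, 475 and 1121 CPM with vehicle and at 1098, 1085 and 484 CPM with bexarotene. Every aged library thus lay above every young one, and 1 library of each stroke group, vehicle 2 and bexarotene 3, fell back into the range of the aged mice without stroke.

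The alpha chain gene H2-Aa was at 57.3, 103 and 72.3 CPM in young vehicle libraries and at 80.3, 80.1 and 82.6 CPM with bexarotene. In aged mice it was at 142, 222 and 194 CPM with vehicle and at 286, 170 and 145 CPM with bexarotene. After stroke it was at 473, 155 and 375 CPM with vehicle and at 337, 351 and 165 CPM with bexarotene. The same 2 stroke libraries were low. Its partner H2-Ab1 was at 87.3, 134 and 117 CPM in young vehicle libraries, 120, 122 and 119 CPM with bexarotene, 197, 330 and 267 CPM in aged vehicle libraries and 424, 261 and 216 CPM with bexarotene. After stroke H2-Ab1 was at 731, 256 and 568 CPM with vehicle and at 581, 542 and 218 CPM with bexarotene. The libraries thus kept nearly the same order for both chains of I-A.

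H2-Eb1 followed the I-A chains. It was at 45.9, 78.8 and 69.5 CPM in young vehicle libraries, 61.5, 63.2 and 63.2 CPM with bexarotene, 101, 180 and 158 CPM in aged vehicle libraries and 217, 136 and 127 CPM with bexarotene. After stroke it was at 323, 126 and 254 CPM with vehicle and at 237, 236 and 113 CPM with bexarotene. For Cd74, H2-Aa, H2-Ab1 and H2-Eb1, the aged groups without stroke stood between the young and the stroke groups by their means. Between neighbours in that order, all pairs of groups overlapped except young against aged.

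The H2-DM genes had a narrower range and another order. H2-DMa was at 138, 171 and 189 CPM in young vehicle libraries and at 125, 173 and 162 CPM with bexarotene. In aged mice it was at 211, 248 and 222 CPM with vehicle and at 209, 250 and 193 CPM with bexarotene. After stroke it was at 198, 156 and 182 CPM with vehicle and at 191, 194 and 159 CPM with bexarotene. The stroke groups therefore stood between the young and the aged groups for H2-DMa, and no neighbours in this order were free of overlap.

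H2-DMb1 was at 92.5, 117 and 118 CPM in young vehicle libraries, 84.7, 112 and 95.1 CPM with bexarotene, 131, 163 and 139 CPM in aged vehicle libraries and 139, 155 and 113 CPM with bexarotene. After stroke it was at 161, 118 and 158 CPM with vehicle and at 145, 149 and 108 CPM with bexarotene. The 4 aged groups differed in mean by less than the spread within them. H2-DMb1 has a near-identical copy, H2-DMb2, so the split of reads between these 2 genes is uncertain.

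Ciita, the transactivator, was the lowest of the 7 in every group. It was at 2.58, 1.89 and 0.698 CPM in young vehicle libraries, 0.205, 1.91 and 2.10 CPM with bexarotene, 3.17, 4.50 and 3.26 CPM in aged vehicle libraries and 7.41, 3.57 and 2.54 CPM with bexarotene. The lowest of these rests on 2 counts, under the floor. After stroke Ciita was at 22.1, 6.15 and 16.9 CPM with vehicle and at 20.3, 13.3 and 6.91 CPM with bexarotene. Under vehicle, the stroke libraries all lay above the aged libraries without stroke, which in turn lay above the young ones.

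**Figure D1:**
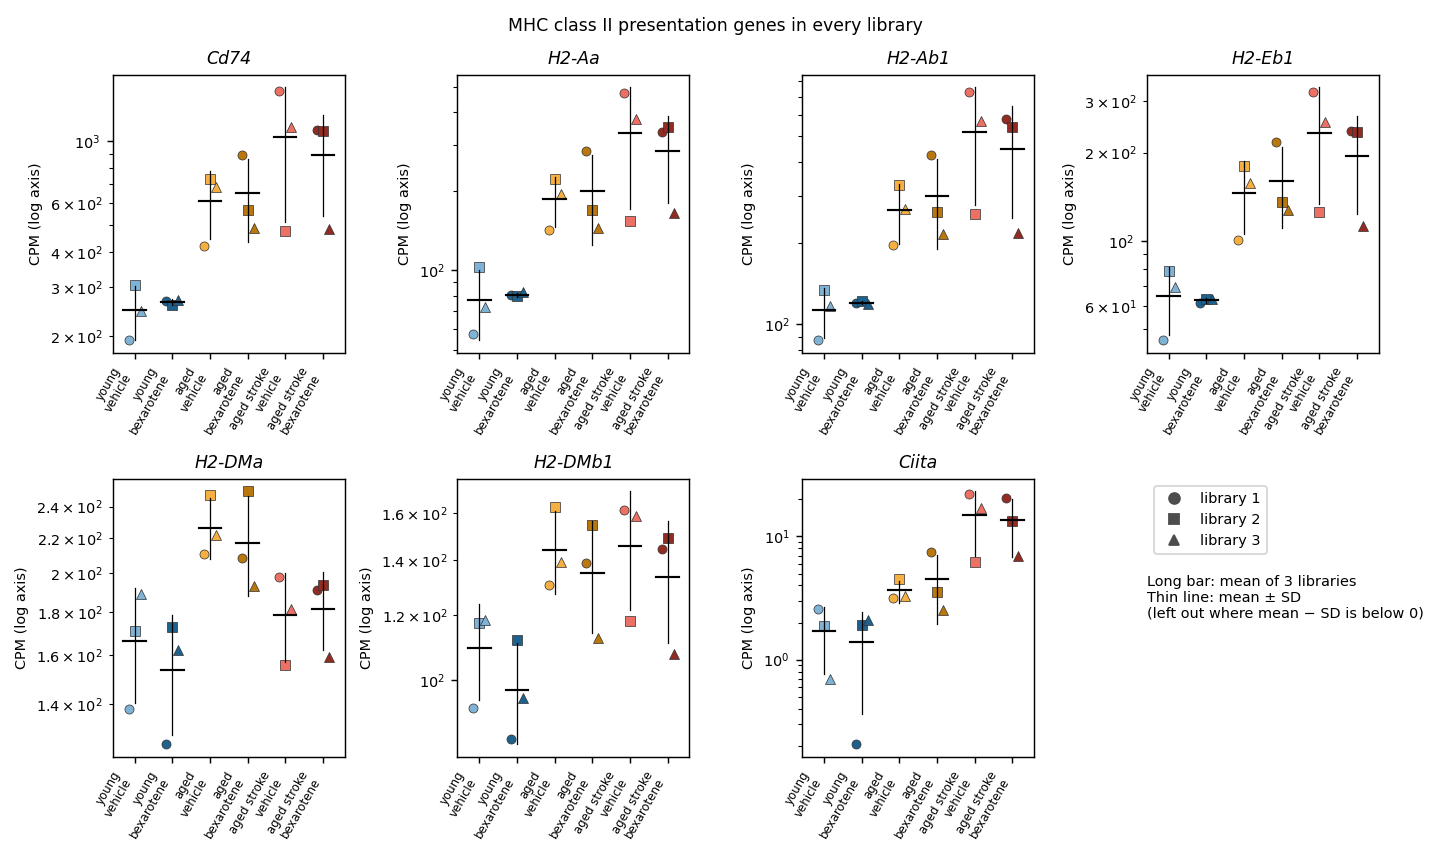
Levels of the 7 class II genes in each of the 18 libraries, in CPM on a log axis, by group. Points are libraries (shape gives the library number), long bars are means of 3 libraries and thin lines mean ± SD. Cd74, the I-A chains and H2-Eb1 were higher in every aged library than in any young one, 2 stroke libraries were low for these genes and Ciita, and H2-DMa was highest in aged mice without stroke.

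Set per kilobase of exon, Cd74 was the highest of the 7 genes and Ciita the lowest in all 6 groups. Cd74 stood at 148 ± 32.7 CPM per kb (SD, n = 3) in young vehicle libraries, 365 ± 99.0 in aged and 617 ± 312 after stroke. H2-Ab1 stood at 43.9 ± 9.22, 103 ± 26.0 and 202 ± 94.0 CPM per kb in the same 3 groups. Ciita stood at 0.180 ± 0.0997, 0.382 ± 0.0779 and 1.58 ± 0.851 CPM per kb. The order of the genes in between depends on the length used: H2-Ab1 ranked 4 in young vehicle libraries by all exons (2.568 kb) and 2 by the longest transcript (1.212 kb). The lengths came from GENCODE M21 on GRCm38, an earlier build than the one the reads were mapped to.

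Cd74 and the 3 chain genes moved in near lockstep across libraries. After subtraction of group means, their 6 pairwise correlations of log2 CPM ran from 0.977 to 0.988 over the 18 libraries. The ratio of H2-Aa to H2-Ab1 (CPM over CPM) stayed within 0.580 to 0.766 in all 18 libraries. H2-Eb1 over H2-Ab1 was 0.512 to 0.596 in the 12 libraries without stroke and 0.409 to 0.516 in the 6 with stroke. H2-DMa and H2-DMb1 correlated with each other at 0.916 but with Cd74 at 0.570 and 0.763. The ratio of Cd74 to H2-DMa was 1.501 ± 0.249 (SD, n = 3) in young vehicle libraries, 2.68 ± 0.591 in aged vehicle libraries and 5.62 ± 2.34 in stroke vehicle libraries. Ciita correlated with Cd74 at 0.551, and stood at 6.14 ± 1.37 CPM per 1000 CPM of Cd74 in aged vehicle libraries and 14.2 ± 1.11 after stroke. Libraries are shared by both genes of each pair, so these correlations are descriptions, given without a test.

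**Figure D2:**
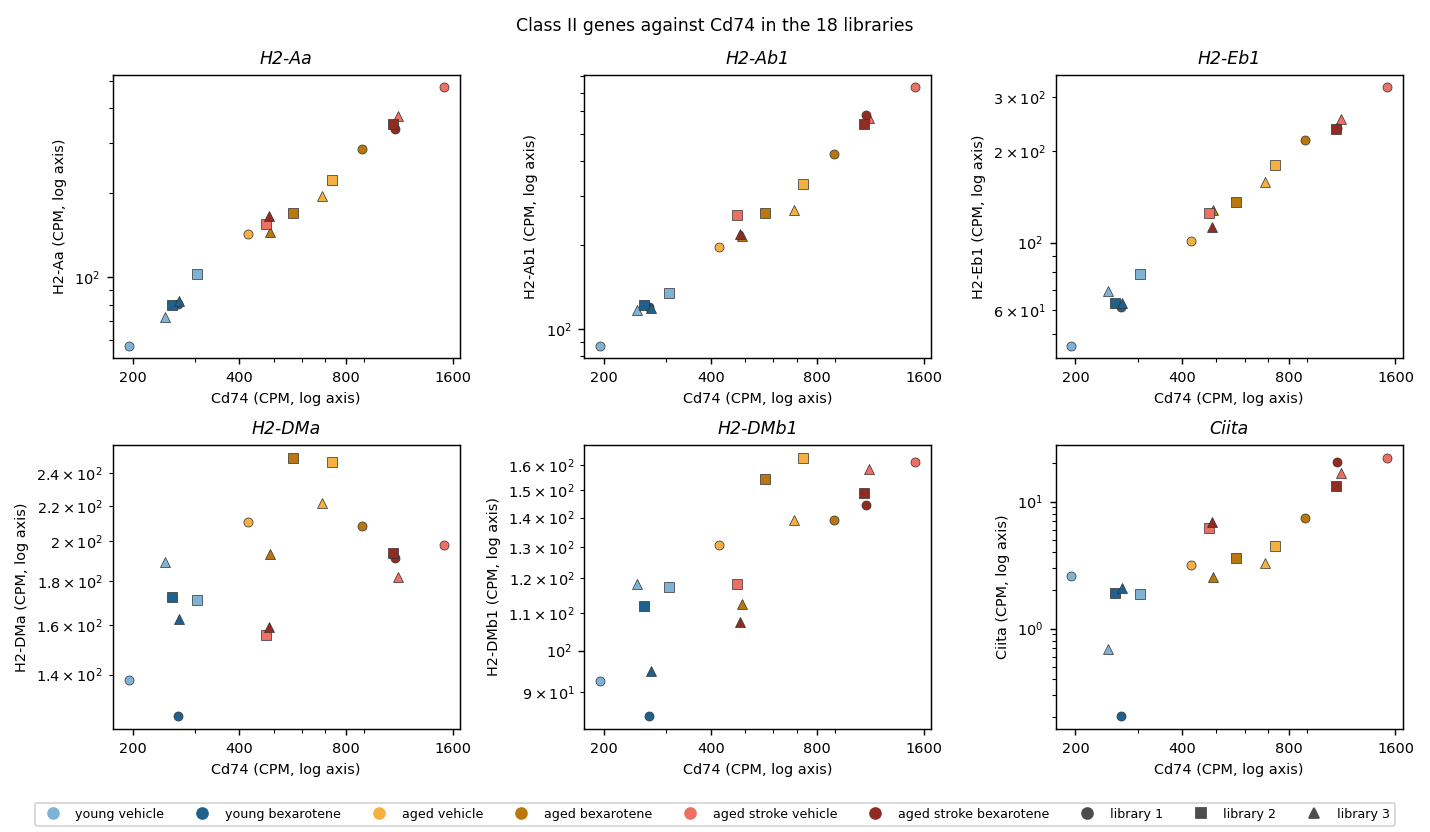
Level of each of the other 6 genes against Cd74 in the 18 libraries, both in CPM on log axes. Colours are groups and shapes library numbers. H2-Aa, H2-Ab1 and H2-Eb1 lie along a line with Cd74, H2-DMa does not, and the stroke libraries have more Ciita than aged libraries without stroke at a like level of Cd74.

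Age was compared in vehicle mice without stroke. All 7 genes were higher in each of the 3 aged libraries than in each of the 3 young ones, which held in that direction for 9.69% of all genes tested (in either direction for 18.4%). Cd74 stood at 249 ± 54.9 CPM in young and 613 ± 166 CPM in aged libraries (SD, n = 3), a log2 fold change of 1.30 ± 0.40 (SE). H2-Aa, H2-Ab1 and H2-Eb1 had log2 fold changes of 1.27 ± 0.40, 1.23 ± 0.41 and 1.18 ± 0.37, each more than a doubling as the model fits it (2.26 to 2.46-fold for these 3 and Cd74). H2-DMa at 0.45 ± 0.14 and H2-DMb1 at 0.40 ± 0.16 had smaller differences, and Ciita at 1.10 ± 0.67 had an interval that crossed 0 (-0.33 to 2.52). The median over the 7 genes was 1.18, against -0.01 over all genes tested.

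In the test fitted to all 18 libraries, none of the 7 passed an adjusted p of 0.05 (edgeR quasi-likelihood test with Benjamini-Hochberg adjustment; 1.7% of all genes did). Their adjusted p-values ran from 0.133 for H2-DMa to 0.552 for Ciita. Before adjustment 6 of the 7 were under 0.05, as were 13.1% of all genes; DESeq2 called 3 (Cd74, H2-Aa, H2-Ab1) and limma voom 0. The spread in that fit is shared with the stroke libraries, in which Cd74 varied 3.18-fold and Ciita 3.59-fold among the vehicle libraries. Ciita also varied 10.2-fold among the young bexarotene libraries, where it had 2 to 22 counts. Whether these spreads bore on the calls for age was not tested. In a fit to the 12 libraries without stroke, added after the data were seen, Cd74, H2-Aa, H2-Ab1 and H2-Eb1 passed (adjusted p = 0.0237, 0.0430, 0.0323 and 0.0466 with edgeR), with Cd74 at 1.31. The fit to only the 2 groups compared called H2-Ab1 alone (adjusted p = 0.0417), and the fit without a filter on low counts called 6. Over all genes, the alternative fits called 107 to 677 for age, against 264 in the fit to all 18 libraries. The authors' deposited table for this comparison lists 451 genes in all. Among them are 5 of the 7, as higher in aged mice, with log2 fold changes of 1.198 for H2-Ab1, 1.22 for H2-Aa, 1.13 for H2-Eb1, 1.15 for Cd74 and 0.28 for H2-DMa.

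Aged mice given bexarotene were also set against young mice given vehicle, which share the young vehicle libraries with the comparison above. Cd74 differed by 1.38 ± 0.40, H2-Aa by 1.37 ± 0.40, H2-Ab1 by 1.41 ± 0.41 and H2-Eb1 by 1.31 ± 0.37 on the log2 scale. H2-DMa differed by 0.39 ± 0.14, H2-DMb1 by 0.31 ± 0.16 and Ciita by 1.40 ± 0.67. Of the 7, 5 had no overlap between groups (21.3% of all genes had none); H2-DMb1 and Ciita overlapped. None was called by edgeR (3.1% of all genes were), with adjusted p-values of 0.0793 to 0.364, while 5 were under 0.05 before adjustment (15.9% of all genes). DESeq2 called 4, limma voom 0, and edgeR on the 12 libraries without stroke 4; in each fit that called 4, they were Cd74, H2-Aa, H2-Ab1 and H2-Eb1. Leaving out the stroke vehicle library numbered 2, which is in neither group, gave the same 4 calls, with adjusted p-values of 0.0318 for Cd74, 0.0323 for H2-Aa, 0.0450 for H2-Ab1 and 0.0383 for H2-Eb1. Leaving out the stroke bexarotene library numbered 3 gave 2, H2-Ab1 at 0.0432 and H2-Eb1 at 0.0482. Over all genes, the alternative fits called 173 to 931 in this comparison, against 482 in the fit reported.

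Stroke was compared with no stroke in aged vehicle mice, and Ciita was the one gene of the 7 that rose. It stood at 3.64 ± 0.743 CPM without and 15.0 ± 8.12 CPM with stroke (SD, n = 3), a log2 fold change of 2.05 ± 0.59 (adjusted p = 0.00910, edgeR; 48.3% of all genes were called, 27.2% as higher). The invariant chain and the classical chains had higher means but overlapping groups: H2-Ab1 differed by 0.97 ± 0.40 (adjusted p = 0.0622), H2-Aa by 0.84 ± 0.39, Cd74 by 0.76 ± 0.40 and H2-Eb1 by 0.68 ± 0.36. H2-DMa was lower, at 227 ± 18.9 CPM without and 178 ± 21.5 CPM with stroke, a difference of -0.34 ± 0.14 that did not pass (adjusted p = 0.0511). H2-DMb1 stood level at 0.02 ± 0.16. The groups did not overlap for Ciita and H2-DMa (56.1% of all genes did not). Before adjustment 3 genes were under 0.05, Ciita, H2-Ab1 and H2-DMa (54.2% of all genes were).

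Calls after stroke turned on single libraries. Without the stroke vehicle library numbered 2, the low one, Cd74 (1.08), H2-Aa (1.17), H2-Ab1 (1.27) and H2-Eb1 (0.96) passed as well as Ciita (adjusted p = 0.0202, 0.0123, 0.0131 and 0.0310 for these 4 with edgeR). Without the stroke bexarotene library numbered 3, H2-Ab1 and H2-DMa passed beside Ciita. H2-DMa passed as lower in 16 of 28 alternative fits, among them DESeq2 and limma voom, and 8 of the fits with 1 library left out gave 2 calls, H2-DMa and Ciita. Those 8 left out young vehicle 1 or 3, young bexarotene 1 or 2, aged vehicle 1, aged bexarotene 2, stroke vehicle 1 or stroke bexarotene 1. Over all genes, the alternative fits called 2085 to 7879 for stroke under vehicle, against 7497 in the fit reported.

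Under bexarotene, stroke against no stroke again gave Ciita as the one call, at 4.51 ± 2.57 and 13.5 ± 6.72 CPM (log2 fold change 1.59 ± 0.58, adjusted p = 0.0325, edgeR; 48% of all genes were called). These groups overlapped for all 7 genes (56.3% of all genes did not overlap), and Ciita alone was under 0.05 before adjustment (53.9% of all genes). The call was lost without aged bexarotene 2, aged bexarotene 3, stroke bexarotene 1 or stroke bexarotene 2, with adjusted p-values of 0.105, 0.122, 0.145 and 0.0619. H2-Ab1 differed by 0.57 ± 0.40, H2-Aa by 0.51 ± 0.39, Cd74 by 0.45 ± 0.40, H2-Eb1 by 0.29 ± 0.36, H2-DMa by -0.26 ± 0.14 and H2-DMb1 by -0.02 ± 0.16, none of which passed.

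Bexarotene against vehicle gave no call among the 7 genes in young mice, aged mice or aged mice with stroke (edgeR; 0.509%, 0.258% and 0.058% of all genes were called). None was under 0.05 before adjustment (8.37%, 6.52% and 6.36% of all genes were), none was called by DESeq2 or limma voom, and no gene of the 7 had groups free of overlap (13.1%, 11.8% and 11.3% of all genes had). For Cd74 the log2 fold changes were 0.10 in young mice (95% interval -0.76 to 0.96), 0.08 in aged mice (-0.77 to 0.94) and -0.22 after stroke (-1.07 to 0.63). H2-Aa, H2-Ab1 and H2-Eb1 lay between -0.26 and 0.18 in these 3 settings, with intervals of like width. The intervals were narrower for H2-DMa, whose differences were -0.11 (-0.41 to 0.18), -0.06 (-0.36 to 0.24) and 0.02 (-0.27 to 0.32). For H2-DMb1 they were -0.17 (-0.51 to 0.17), -0.09 (-0.42 to 0.24) and -0.13 (-0.46 to 0.20). Ciita allowed the widest range, at -0.28 (-1.86 to 1.30), 0.30 (-0.996 to 1.60) and -0.15 (-1.30 to 0.99). For Cd74 and the 3 chain genes the young bexarotene libraries were close to each other, with Cd74 at 266 ± 6.54 CPM against 249 ± 54.9 CPM under vehicle. H2-DMa (SD 24.9 against 25.9 CPM) and H2-DMb1 (13.7 against 14.6 CPM) were about as spread as under vehicle. The authors' deposited tables for these 3 comparisons list 197, 149 and 96 genes, none of them of the 7. None of the 7 was called in any of the alternative fits.

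Interactions were tested to ask whether bexarotene acted differently by age, and differently with and without stroke in aged mice. Neither gave a call among the 7 genes or among all genes tested (0% by edgeR; 456 and 638 genes, 2.94% and 4.11%, under 0.05 before adjustment, none of them of the 7; DESeq2 called 5 and 9 genes and limma voom 0, none of the 7). For Cd74 the difference was -0.01 (95% interval -1.22 to 1.197) by age and -0.30 (-1.51 to 0.90) by stroke. The second of these is also the difference between the stroke effects under bexarotene and under vehicle. For H2-DMa the differences were 0.05 (-0.37 to 0.47) and 0.08 (-0.33 to 0.50).

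**Figure D3:**
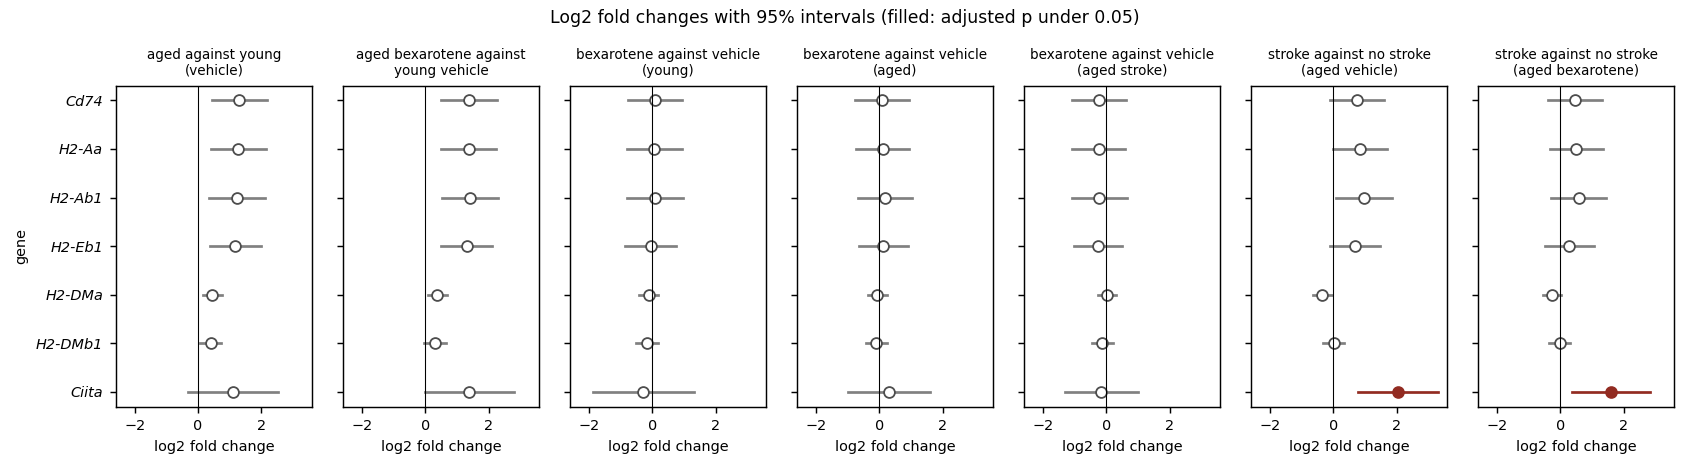
Log2 fold changes of the 7 class II genes in 7 comparisons, from the edgeR fit to all 18 libraries. Points are estimates, lines 95% intervals, and filled points have an adjusted p under 0.05. Ciita is filled in both stroke panels, all 7 points lie above 0 in the panel for age, and the points for bexarotene lie close to 0.

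Other genes of class II chains and editors were read from a list of 5. H2-Ea-ps, the pseudogene of the I-E alpha chain that would pair with H2-Eb1, had 0 counts in all 18 libraries, which allows at most 0.104 to 0.405 CPM. H2-Eb2, a second beta chain gene, had 0 to 7 counts. H2-Oa and H2-Ob encode H2-DO, an inhibitor of H2-DM that is best known from B cells. With stroke under vehicle H2-Ob fell, from 79.5, 69.1 and 93.9 CPM to 28.6, 20.96 and 30.0 CPM (log2 fold change -1.61 ± 0.19, adjusted p = 2.5e-06, edgeR). H2-Oa fell as well, from 20.1, 22.8 and 22.2 CPM to 13.7, 6.46 and 9.09 CPM (-1.15 ± 0.21, adjusted p = 0.000234), a call lost with the B cell markers as a covariate (-0.55, adjusted p = 0.0990). The summed B cell markers were lower in every stroke vehicle library than in any aged vehicle library, so that covariate cannot separate B cells from stroke. Under bexarotene H2-Ob fell with stroke by 1.26 on the log2 scale (adjusted p = 3.06e-05), and H2-Oa differed by -0.36 ± 0.21 without passing. H2-DMb2 differed by -0.17 ± 0.14 and 0.01 ± 0.14 in the same 2 comparisons. None of the 3 genes tested passed with age (1.7% of all genes did), at 0.30 for H2-Ob, 0.47 for H2-Oa and 0.38 for H2-DMb2.

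Factors that sit on class II promoters were also counted. Rfx5, Rfxap and Rfxank form the RFX complex on the X box, Creb1 binds beside it, and Nfya, Nfyb and Nfyc form NF-Y on the Y box. With age 0 of these 7 genes passed by edgeR, where 1.7% of all genes did. With stroke under vehicle 0 rose and 2 fell, a smaller share than the 48.3% of all genes called: Rfxap (31.5 to 23.0 CPM, -0.45 ± 0.12, adjusted p = 0.00338) and Creb1 (122 to 89.8 CPM, -0.44 ± 0.14, adjusted p = 0.0133). Under bexarotene stroke gave 3 that fell: Creb1 (-0.58 ± 0.14), Rfxap (-0.38 ± 0.11) and Rfxank (-0.53 ± 0.19), where 48% of all genes were called. The Rfxank call held in 19 of 28 alternative fits and was lost without aged bexarotene 2 or 3 or stroke bexarotene 1 or 3 (adjusted p = 0.0997, 0.0538, 0.0581 and 0.123). Rfx5 differed by -0.41 ± 0.20 and -0.22 ± 0.20 in these comparisons, without passing. Ciita thus rose with stroke in both treatments, and none of the 7 factors at these promoters did.

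Interferon gamma is the best known inducer of Ciita, through a receptor that signals by the kinases Jak1 and Jak2. Ifng itself had 0 counts in all 18 libraries. With stroke under vehicle Jak2 (0.86 ± 0.16) and Socs1, a feedback inhibitor (1.41 ± 0.27), rose. The receptor chain gene Ifngr1 fell, from 1693 to 772 CPM in the mean (-1.13 ± 0.12, adjusted p = 3.47e-07, edgeR). Under bexarotene Jak2 (0.87 ± 0.16) rose with stroke, and Ifngr1 (-1.12 ± 0.12) and Jak1 (-0.25 ± 0.08) fell. With age these 4 genes did not pass, at -0.21 ± 0.16 for Jak2, 0.21 ± 0.28 for Socs1, -0.10 ± 0.11 for Ifngr1 and -0.04 ± 0.08 for Jak1.

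Endosomal proteases and their partners cut the invariant chain and the antigens. With age 1 of 9 passed, where 1.7% of all genes did. This was Sppl2a, the protease that removes the last membrane stub of the invariant chain. It fell from 298, 264 and 236 CPM to 221, 192 and 191 CPM (-0.40 ± 0.10, adjusted p = 0.0386, edgeR). That call held in 14 of 29 alternative fits, and 7 of those that lost it left out 1 library: young vehicle 1 or 2, young bexarotene 3, aged vehicle 2 or 3, or aged bexarotene 1 or 3 (Sppl2a adjusted p = 0.0503 to 0.222). Ctss, the cathepsin that trims the invariant chain, stood at 7114 and 9210 CPM in young and aged libraries (0.37 ± 0.12, adjusted p = 0.130). With stroke under vehicle 5 rose and 2 fell (48.3% of all genes were called, 27.2% as higher). Ifi30, the thiol reductase of endosomes, rose from 44.8, 45.3 and 41.4 CPM to 218, 220 and 241 CPM (2.37 ± 0.19, adjusted p = 3.68e-08). Ctsb (0.90 ± 0.14), Sppl2a (0.62 ± 0.10), Ctsl (0.84 ± 0.14) and Ctsz (0.48 ± 0.14) also rose, the last 2 named after their values were seen. Cst3, the cathepsin inhibitor cystatin C, fell from 19399 to 5668 CPM (-1.78 ± 0.14), and Ctss fell from 9210 to 6965 CPM (-0.40 ± 0.12, adjusted p = 0.00809). Under bexarotene stroke gave 6 that rose, with Ifi30 at 2.72 ± 0.20, and 1 that fell, Cst3 at -1.59 ± 0.14 (48% of all genes were called). Ctss differed by -0.22 ± 0.12 without passing.

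March1 marks surface class II and Cd86 for removal, and Cd83 opposes it. March1 fell with stroke, from 252, 353 and 349 CPM to 172, 189 and 150 CPM under vehicle (-0.90 ± 0.19, adjusted p = 0.000977, edgeR) and by 1.03 on the log2 scale under bexarotene. With age 0 of the 3 genes of class II turnover passed, where 1.7% of all genes did, and Cd83 differed by 0.77 ± 0.23 (adjusted p = 0.115). Among 6 ligands that T cells read beside class II, 1 passed with age, against the same 1.7%. This was Cd274 (PD-L1), which rose from 13.4, 14.3 and 10.4 CPM to 23.7, 31.0 and 19.7 CPM (0.98 ± 0.22, adjusted p = 0.0284). The Cd274 call held in 20 of 29 alternative fits and was lost without any 1 of the young vehicle libraries or aged vehicle 1 or 2 (adjusted p = 0.0503 to 0.167), and by limma voom (0.0761). With stroke under vehicle 3 ligands rose and 3 fell (48.3% of all genes were called). Cd40 rose from 2.26, 1.57 and 1.34 CPM to 19.6, 11.3 and 16.7 CPM (3.19 ± 0.45), and Cd274 (1.03 ± 0.21) and Pdcd1lg2 (1.42 against 0.0906 CPM), both named after their values were seen, rose too. Cd80 (-1.33 ± 0.14), Cd86 (-0.87 ± 0.12) and Icosl (-0.61 ± 0.11) fell. Under bexarotene the stroke comparison gave the same 3 genes as higher and the same 3 as lower (48% of all genes were called). With bexarotene against vehicle, 0 genes of these pathway lists were called in young mice, aged mice or aged mice with stroke (0.509%, 0.258% and 0.058% of all genes were).

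**Figure D4:**
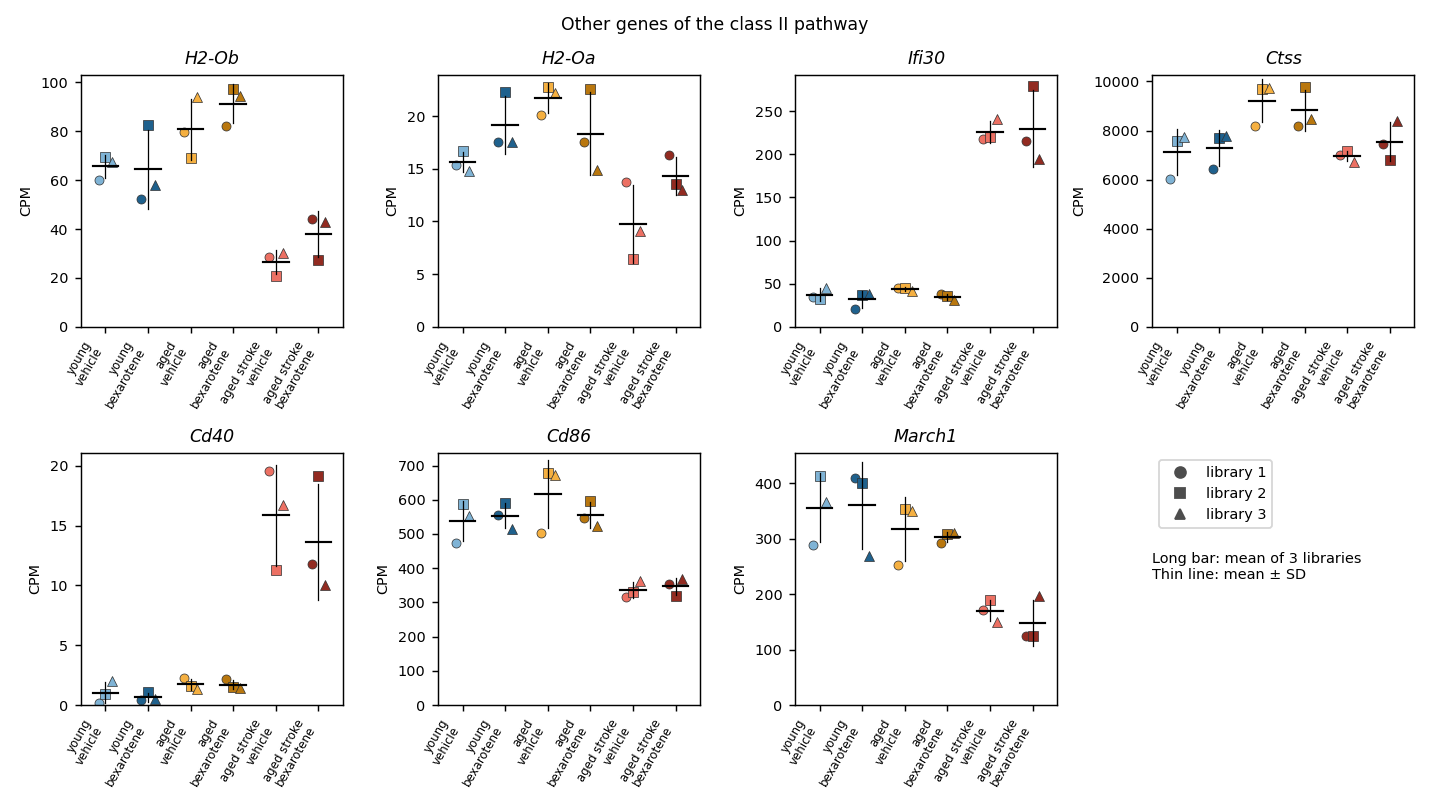
Levels of 7 other genes of the class II pathway in the 18 libraries, in CPM on a linear axis from 0, by group. Points are libraries, long bars means of 3 libraries and thin lines mean ± SD. With stroke H2-Ob, Cd86 and March1 were lower and Ifi30 and Cd40 higher in both treatments, while H2-Oa and Ctss passed as lower under vehicle only, a difference between treatments that was not called for either.

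A CD11b selection can also hold dendritic cells, monocytes, neutrophils and a few other cells, so their markers were read beside the class II genes. Counts of markers called with stroke under vehicle stand against 48.3% of all genes called and 27.2% called as higher. All 10 monocyte markers rose, their summed level going from 65.3 to 106 CPM in aged vehicle libraries to 3121 to 4964 CPM. Of 11 dendritic cell markers tested, 6 rose and 1 fell. Flt3, a receptor of that lineage, went from 2.72, 1.08 and 0.672 CPM to 13.02, 7.31 and 17.5 CPM, and Ccr7 from 0 to 0.294 CPM to 2.50 to 7.77 CPM. Cd209a, on the same list, was lower, going from 47.6, 70.0 and 71.8 CPM to 39.5, 19.4 and 40.9 CPM. Of 10 neutrophil markers 5 passed as higher and 0 as lower, near the 48.3% of all genes called but above the 27.2% called higher. Of 10 microglial markers 8 fell, and their sum went from 42330 to 46449 CPM to 20224 to 20855 CPM. Monocytes, dendritic cells and stroke cannot be told apart in this design. With the log2 summed level of the dendritic cell list as a covariate, the stroke difference of Ciita turned to -0.13 under vehicle (adjusted p = 0.965) and to -0.58 under bexarotene (adjusted p = 0.820). That of H2-DMb1 turned to -0.92 (adjusted p = 0.0224), that of H2-DMa became -1.03 (adjusted p = 0.0133) and that of Cd74 -1.04 without passing, all under vehicle.

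Among B cell markers, Pax5 had 0 counts in all young, aged vehicle and stroke bexarotene libraries, and Cd79a stayed at or below 1.73 CPM in all 18 libraries. The B cell list summed to 457 to 523 CPM in young vehicle, 503 to 629 CPM in aged vehicle and 279 to 413 CPM in stroke vehicle libraries, and Ighm made up most of it, at 412 to 575 CPM in young and aged vehicle libraries. With that sum as a covariate, Cd74 (1.48), H2-Aa (1.64), H2-Ab1 (1.79) and H2-Eb1 (1.39) passed as higher with stroke under vehicle, beside Ciita (3.69), and H2-DMa stood at 0.05. The B cell sum did not overlap between aged vehicle and stroke vehicle libraries, so this covariate cannot separate B cells from stroke. T cell and NK cell markers summed to 5.68 to 18.0 CPM over all libraries.

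With age, Itgax (CD11c), on the dendritic cell list and also known from activated microglia, rose from 9.16, 7.42 and 5.41 CPM to 14.8, 39.1 and 30.0 CPM (1.93 ± 0.40, adjusted p = 0.0169, edgeR). It was the one of 11 dendritic cell markers that passed, where 1.7% of all genes tested did. Flt3 stood at 1.34 and 1.49 CPM and Cd209a at 35.7 and 63.1 CPM in young and aged vehicle libraries. The dendritic cell list summed to 125 to 148 CPM in young and 146 to 208 CPM in aged vehicle libraries. With that sum as a covariate, the age differences of Cd74, H2-Aa, H2-Ab1 and H2-Eb1 were 0.68, 0.67, 0.63 and 0.60, those of H2-DMa, H2-DMb1 and Ciita 0.22, 0.08 and 0.38, and none passed. Of 11 markers of border-associated macrophages, 3 passed as lower with age and 0 as higher, against the same 1.7% of all genes. These were Clec10a (-1.30 ± 0.23), Cbr2 (-0.83 ± 0.17) and Pf4 (-0.98 ± 0.21).

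Across the 18 libraries after subtraction of group means, the mean of z-scored Cd74, H2-Aa, H2-Ab1, H2-Eb1 and Ciita correlated with the summed dendritic cell markers at 0.645, B cell markers at 0.604, T and NK cell markers at 0.564, monocyte markers at 0.214 and microglial markers at 0.108. That mean correlated with endothelial markers at 0.368 and with neutrophil markers at -0.460. The mean of z-scored H2-DMa and H2-DMb1 correlated with dendritic cell markers at 0.732 and B cell markers at 0.689. With microglial markers the H2-DM mean correlated at 0.484 and with choroid plexus markers at -0.573. The stroke vehicle library numbered 2 and the stroke bexarotene library numbered 3, which were low in the class II chains, had the highest S100a8, a neutrophil gene, at 795 and 1112 CPM against 155 to 350 CPM in the other 4 stroke libraries. These points share their libraries, and the part of these cells in the class II differences was not tested. The dendritic cell covariate cannot separate such cells from stroke. Its sum was 146 to 208 CPM in aged vehicle and 399 to 491 CPM in stroke vehicle libraries, without overlap. For age it cannot do so either, because the sum holds Itgax, which was itself called with age.

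**Figure D5:**
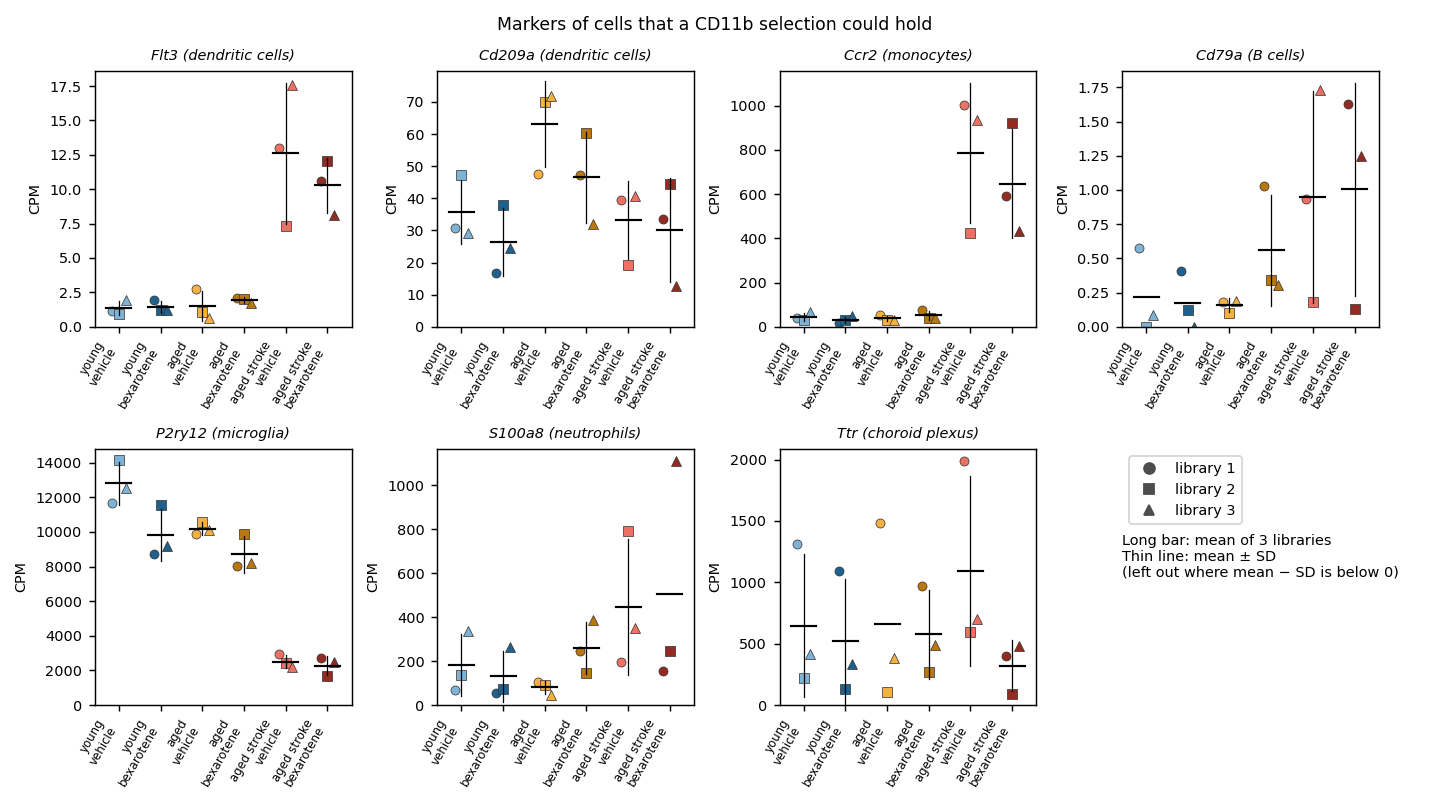
Levels of 7 markers of cells that a CD11b selection could hold, in CPM on a linear axis from 0, by group. Points are libraries, long bars means of 3 libraries and thin lines mean ± SD, left out where they would cross 0. Flt3 and Ccr2 are higher in every stroke library than in any other, Cd79a stays at or below 1.73 CPM, P2ry12 is lower with stroke, and S100a8 is highest in the 2 stroke libraries that were low in class II. Cd209a is lower in every stroke vehicle library than in any aged vehicle library.

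The genes whose levels were most like the mean of the 7 z-scored class II genes over all 18 libraries were Crlf2 (Pearson correlation 0.916), Cxcl16 (0.907), Cd48 (0.905), Gltp (0.9003), Pld3 (0.892), Atp6v1g1 (0.889), Gm10157 (0.887) and Mpeg1 (0.886). Mpeg1, which encodes the pore-forming perforin-2 of macrophages, was at 142 to 172 CPM in young vehicle libraries, 981 to 1063 CPM in aged vehicle libraries and 987 to 1692 CPM in stroke vehicle libraries. After subtraction of group means, which leaves the spread within groups, the 8 most alike were Dmac1 (0.897), Ms4a7 (0.874), Cd209a (0.863), Gypc (0.861), Capg (0.848), Gimap4 (0.842), Trdmt1 (0.837) and Tmsb10 (0.834). Ms4a7 and Cd209a stand on the lists of border-associated macrophage and dendritic cell markers. The border-associated macrophage list as a sum, also after subtraction of group means, correlated at 0.045 with the mean of Cd74, the chain genes and Ciita. With the H2-DM mean that sum correlated at -0.416. Both rankings are over 18 libraries that all genes share and carry no test.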

How the data were processed

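RNA of 18 libraries was measured. The authors deposited whole-number counts per gene, not normalized, under Ensembl identifiers. Per the file headers, 4 more tables give the authors' comparisons, with a baseMean (the mean signal per gene), log2 fold changes and raw and adjusted p-values. The submitters' processing notes name GRCm39 as the build, with R 4.4.2, STAR 2.7.10a, Trimmomatic 0.40 and GATK as tools. The counter and annotation, and whether strand was used, are not named there. Symbols came from GENCODE M21, helped by the authors' tables (52033 of 57010 genes); unnamed genes held 0.326% of counts.

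The tests used edgeR 4.0.16 under R 4.3.3 (limma 3.58.1; DESeq2 1.42.0 as an alternative). Genes were filtered with filterByExpr, libraries scaled by TMM (factors 0.937 to 1.05), and 1 robust quasi-likelihood model was fitted to all 18 libraries with 12 residual degrees of freedom. Benjamini-Hochberg adjustment ran over all 15528 genes, with a threshold of 0.05. Unless stated, single-gene adjusted p-values come from this edgeR test, differences are log2 fold changes ± SE, and levels are CPM. The script was tested on simulated data. Alternatives were other scaling, no filter, DESeq2, limma voom, fewer groups, a replicate block, each library left out, all libraries numbered 1 left out, and summed choroid plexus, dendritic cell or B cell markers as a covariate. A fit to the 12 libraries without stroke was added after seeing the data.

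The labels number libraries 1 to 3 in each group without naming a shared batch. Deviations of same-numbered libraries from their group means correlated above 0.1 in all 3 pairs for bexarotene in young mice (0.259, 0.276 and 0.140) and for treated aged against untreated young mice (0.275, 0.284 and 0.110), and in no other comparison. The highest single pair was in the age comparison (0.386, 0.229 and -0.014). Summed choroid plexus markers were 2637, 426 and 767 CPM in young vehicle and 2720, 209 and 716 CPM in aged vehicle libraries. In stroke bexarotene libraries they were 631, 143 and 728 CPM. No 2 libraries of a group agreed within sampling noise (chi-square per degree of freedom 6.19 to 40.3).

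The 7 genes, the lists and the tests were chosen with earlier results of these data known. All 7 were described in every comparison; of other pathway genes, those called were named, at most 4 a list by lowest p, with H2-Ea-ps, H2-Eb2, H2-DMb2, H2-Oa, H2-Ob, Rfx5, Ifng and Ctss in any case, and the 8 genes most alike in pattern. Some genes of these lists are not reported here.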

Additional observations from a re-analysis of the deposited data

How the results depend on the processing

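Of 1799 log2 fold changes of the 7 genes under alternatives, 1720 kept their side of the threshold and, where called, their direction; 72 became called and 4 lost a call. Signs of values called in neither fit changed in 138 cases and were not followed. Of the 7 genes, stroke under vehicle called 1, against 2 with DESeq2 size factors, 6 without the low-count filter, 3 by DESeq2, 2 by limma voom, 2 in the 2 groups alone, 2 without the libraries numbered 1, 2 with the dendritic cell covariate, 5 with the B cell covariate and 1 to 5 with 1 library left out. Age called 0, against 6 without the filter, 3 by DESeq2, 1 in the 2 groups alone and 4 in the 12 libraries without stroke. Stroke under bexarotene called 1, against 4 without the filter, 2 with each of the 3 covariates and 0 to 1 with 1 library left out. Treated aged against untreated young called 0, against 5 without the filter, 4 by DESeq2, 1 in the 2 groups alone, 1 with the B cell covariate, 4 in the 12 libraries and 0 to 4 with 1 library left out. Reversals were all with the dendritic cell covariate: with stroke under vehicle H2-DMb1 at -0.92, Ciita at -0.13 and Creb1 at 0.082, and under bexarotene Ciita at -0.58. For these changes the cause was not tested. With the replicate block, stroke called 1 of the 7 under vehicle and 1 under bexarotene, and the other comparisons 0, as without it; 14 of 18 libraries correlated best with their own number. Over all genes, calls ranged across alternatives from 107 to 677 for age (264 in the fit reported), 17 to 457 (79), 9 to 339 (40) and 1 to 419 (9) for bexarotene in young, aged and stroke mice, 2085 to 7879 (7497) and 1606 to 7790 (7450) for stroke under vehicle and bexarotene, 173 to 931 (482) for treated aged against untreated young, and 0 to 138 and 0 to 256 for the interactions. With few counts (2 to 72 without stroke), Ciita allowed only wide intervals.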
